A study of Mus musculus with 2 samples.

Results

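Ifitm1, Ifitm2 and Ifitm3 encode interferon-induced transmembrane proteins, and all 3 had a lower signal in CD4CD8aa IEL than in CD4 IEL. They were 3 of the 20679 genes that the deposited table names by 1 symbol, found by an exact match to their symbols, and each is read by 1 of the 45101 probe sets. The genes were chosen by symbol with their difference between these same arrays already known, so the differences below describe them and support nothing. Intraepithelial lymphocytes (IEL) are T cells lodged between the epithelial cells of the gut. Both populations came from the small intestine of RAG knockout mice that had been given naive CD4 cells 8 weeks earlier, the transfer model of colitis, and the strain is given as C57BL/6. The mice lack T and B cells of their own but keep their epithelial, myeloid and stromal cells. CD4 IEL were sorted as CD4 cells without CD8 alpha, and CD4CD8aa IEL as CD4 cells that carried it. Each group is 1 Affymetrix mouse array of total RNA, so no difference has a replicate or a test, and how many mice stand behind an array was not stated in the sources used here.

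Signals are multiples of the array's median, a raw signal of 82.5 for CD4 IEL and 81.1 for CD4CD8aa IEL, and they carry no replicate error. Where a pair of signals is given, the first is that of CD4 IEL and the second that of CD4CD8aa IEL. Differences are log2 values, CD4CD8aa IEL minus CD4 IEL, after signals under 0.4 times the median were set to that floor. A gene counted as detected where it passed the floor on at least 1 array, as 17391 genes did. The defining markers of the sort followed the labels, with signals of 3.79 and 291.4 for Cd8a and of 72.6 and 86.4 for Cd4. In RNA of whole sorted populations, fewer cells that carry a transcript and less of it per cell cannot be told apart.

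IFITM proteins are small proteins of the plasma and endosomal membranes that hinder enveloped viruses from fusing with a cell. In humans IFITM1 lies mostly at the cell surface, and IFITM2 and IFITM3 mostly in endosomes and lysosomes. Interferons raise the genes, although many tissues also express them at rest. In mice Ifitm3 is known to protect resident memory T cells of the lung from infection.

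Ifitm3, the family member best known for restricting influenza virus, read 14.5 times the median on the array of CD4 IEL and 1.51 times on that of CD4CD8aa IEL. It was thus 9.58-fold lower in the cells with CD8 alpha, a log2 difference of -3.26. The signal went from well above the median of the CD4 array to near the median of the CD4CD8aa array.

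Ifitm1, whose human namesake lies mostly at the cell surface, had signals of 9.29 and 2.29. This is 4.05-fold lower in CD4CD8aa IEL, a log2 difference of -2.02. Ifitm2, whose human namesake shares its endosomal location with IFITM3, had signals of 40.8 and 10.9, 3.74-fold lower, a log2 difference of -1.90. On both arrays all 3 genes stayed above the floor, and none carried the flag with which the deposited table marks the lowest 20.0% of an array's signals, so none of these folds is a lower bound.

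**Figure D1:**
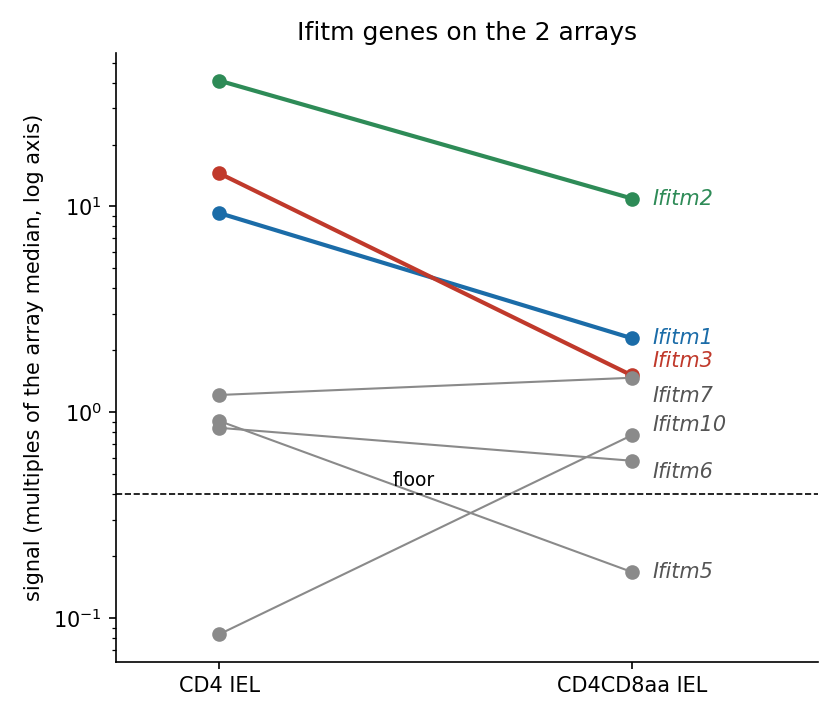
Signal of each Ifitm gene (vertical log axis, multiples of the array median) on the CD4 IEL and the CD4CD8aa IEL array, 1 line per gene and 1 array per group. Ifitm1, Ifitm2 and Ifitm3 (coloured) go from between 9.29 and 40.8 to between 1.51 and 10.9, while the other genes (grey) start at 1.21 or lower. Heights of different lines are different probe sets and are not to be compared.

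With no replicate arrays, spread was taken from genes read by several probe sets. Probe sets of the same gene were paired with the next in brightness, and the gap between their log2 differences was taken. The SD was computed from these gaps and scaled to the spread of a single probe set. This same-gene SD was 0.43 on the log2 scale at mean signals of 4 to 16 times the median, where Ifitm1 and Ifitm3 lay, and 0.31 at 16 to 64 times, where Ifitm2 lay. The differences of Ifitm1, Ifitm2 and Ifitm3 were 4.65, 6.06 and 7.51 times these SDs, which hold no variation between mice or RNA preparations. In CD4CD8aa IEL the signals of Ifitm1 and Ifitm3, 2.29 and 1.51, lay at 1 to 4 times the median, where the SD was 0.66. With that SD their multiples would be smaller and the combined SDs that include them larger. The difference of Ifitm3 lay below that of Ifitm1 by 1.24 and below that of Ifitm2 by 1.36 on the log2 scale, beyond the combined SDs of 0.61 and 0.54. Ifitm1 and Ifitm2 were 0.12 apart, within the combined SD of 0.54.

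All 3 genes were at least 2-fold lower in CD4CD8aa IEL. Of all 17391 detected genes, 6.26% were at least 2-fold lower and 6.66% at least 2-fold higher, and since the genes were picked with this contrast known, nothing is read from the comparison. At mean signals of 4 to 16 times the median 2.34% of genes were at least 2-fold lower, and at 16 to 64 times 1.53% were. The difference of Ifitm3 was equalled or exceeded downwards by 36 genes, itself included, that of Ifitm1 by 157 and that of Ifitm2 by 191.

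**Figure D2:**
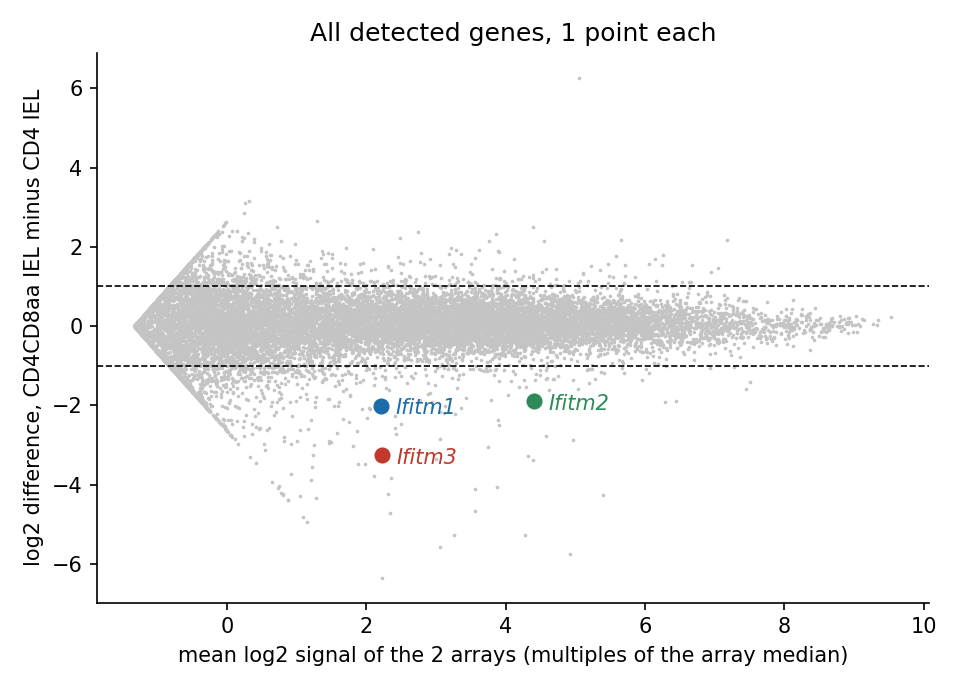
Log2 difference between the arrays (vertical axis, CD4CD8aa IEL minus CD4 IEL) against mean log2 signal (horizontal axis, multiples of the array median), 1 grey point for each of the 17391 detected genes. Dashed lines mark 2-fold. Ifitm1, Ifitm2 and Ifitm3 lie below the bulk of genes of like signal, at -2.02, -1.90 and -3.26.

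The other Ifitm genes of the table were dim. Ifitm5, a gene of bone-forming osteoblasts, had signals of 0.91 and 0.17, the second under the floor, at least 2.27-fold lower. Ifitm6 had 0.84 and 0.58, a log2 difference of -0.53, and Ifitm7 had 1.21 and 1.47, a log2 difference of 0.28. Ifitm10, which the table lists under its older name 6330512M04Rik, had 0.08 and 0.77 and was below the floor in CD4 IEL, a log2 difference of 0.95 against the floor. At signals under the median the same-gene SD was 0.83, and it was 0.66 at the signal of Ifitm7. The differences of Ifitm6 and Ifitm7 lay within this probe set spread. Those of Ifitm5 and Ifitm10 were 1.43 and 1.15 SDs against the floor, which are bounds, so their full size is not known.

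Ifitm1, Ifitm2 and Ifitm3 lie within 55908 bases of each other on chromosome 7 in the RefSeq annotation of the GRCm38.p6 build. Ifitm2 spans chr7:140954837-140959686, Ifitm1 chr7:140967429-140969827 and Ifitm3 chr7:141009590-141010744, with Ifitm5 and Ifitm6 on the flanks and a pseudogene and a noncoding RNA gene between Ifitm1 and Ifitm3. Ifitm1 is read from the plus strand, Ifitm2 and Ifitm3 from the minus strand. Between the members and within 8 places in the gene order on either side there were 16 genes that are not of the Ifitm family. Of these, 9 were detected, and the others except Cox8b had no probe set named by their symbol alone. Among the 9, 0 differed by 2-fold, beside the 6.26% lower and 6.66% higher of all detected genes. So short a list would hold few at these shares, and nothing is read from the count. The median log2 difference of the 9 was -0.02. The lowest was B4galnt4, a glycosyltransferase gene, at -0.42 (signals of 23.3 and 17.4), and the highest was Nlrp6, which encodes an inflammasome sensor, at 0.65 (0.61 and 0.96). Sigirr, a negative regulator of IL-1 receptor signalling, had signals of 22.2 and 20.6. Psmd13, a proteasome subunit gene, had 22.1 and 18.6, and Pkp3, which encodes a desmosomal plakophilin, 61.9 and 61.2. Further detected neighbours were Sirt3 (log2 difference 0.03), Pgghg, listed as Athl1 (0.55), Ptdss2 (-0.27) and Ano9 (signals of 0.60 and 0.59). Among the detected genes in this stretch of the chromosome, those at least 2-fold lower were Ifitm1, Ifitm2, Ifitm3 and, as a bound from dim signals, Ifitm5.

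**Figure D3:**
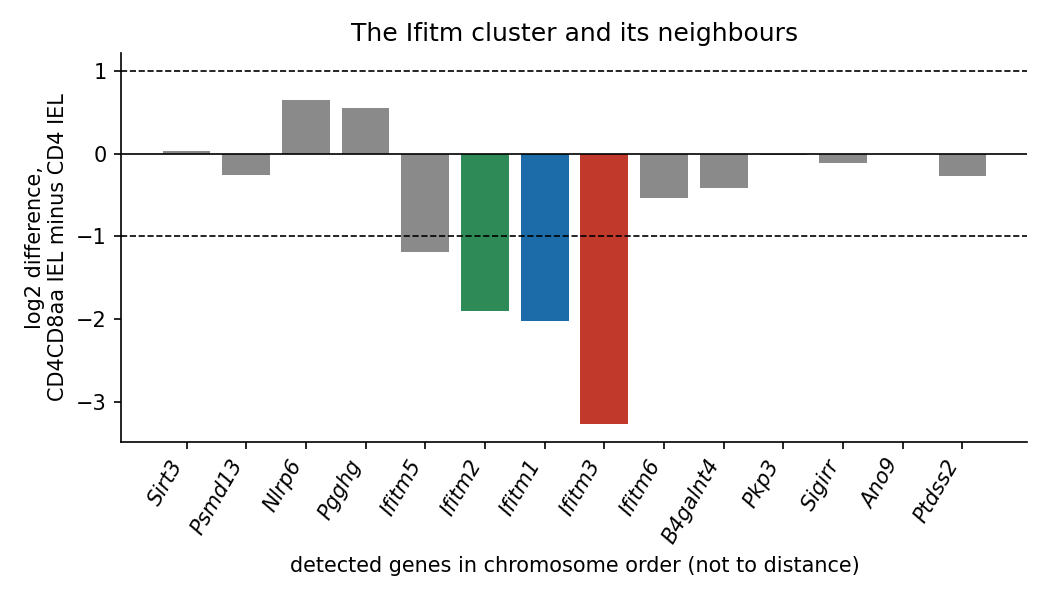
Log2 difference (vertical axis, CD4CD8aa IEL minus CD4 IEL) of the detected genes around the Ifitm cluster, in their order on chromosome 7 and not to distance. Dashed lines mark 2-fold. Ifitm2, Ifitm1 and Ifitm3 (coloured) reach -1.90, -2.02 and -3.26, and the genes outside the family lie between -0.42 and 0.65. Ifitm5 is drawn at -1.18 against the floor, so its fold is at least the size drawn.

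RefSeq's promoter windows, 250 bases before to 50 after a gene's start, were searched for the letters of 2 interferon motifs on both strands, since the 3 genes are known interferon targets and were lower together. The core of the interferon-stimulated response element was searched as GAAANNGAA, and the gamma-activated site, a motif of interferon gamma target genes, as TTCNNNGAA. Ifitm3 held 2 matches of the first motif, Ifitm2 held 1 and Ifitm1 held 0. The 30 bases around these matches show the likeness of both genes, with the matches in capitals, each 5′ to 3′ on the minus strand of GRCm38.p6, at chr7:140955981-140956010 for Ifitm2 and chr7:141010716-141010745 for Ifitm3.
Ifitm2: cagGAAAAGGAAattgctagagaaagggcg
Ifitm3: cagGAAAAGGAAacttctgaGAAACCGAAa
Counted from the start that each window is built on, the first match begins at position -46 in Ifitm2 and at position 3, inside the annotated transcript, in Ifitm3. The start used for Ifitm2 lies within the gene's annotated span, and the span's own upstream end was not searched. Of all 32851 promoter windows 8.56% held at least 1 match and 0.62% at least 2. The gamma-activated site had 1 match in Ifitm3, overlapping the second match above, 0 in Ifitm1 and 0 in Ifitm2, and 8.30% of all windows held one. A match is a run of letters and not a measured binding site, and a window without one says nothing about the factors.

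The windows of Ifitm2 and Ifitm3 shared 4 runs of at least 10 bases in the same order, whereas the window of Ifitm1 shared 0 with either. The longest run, of 13 bases, holds the response element core and stood in 3 of the 32851 windows as written. The 250 bases before each start are shown with the shared runs in capitals, for Ifitm2 at chr7:140955962-140956211 and for Ifitm3 at chr7:141010745-141010994, both on the minus strand. The longest run crosses the start of Ifitm3 and is therefore seen whole, for that gene, only in the shorter stretch above.
Ifitm2: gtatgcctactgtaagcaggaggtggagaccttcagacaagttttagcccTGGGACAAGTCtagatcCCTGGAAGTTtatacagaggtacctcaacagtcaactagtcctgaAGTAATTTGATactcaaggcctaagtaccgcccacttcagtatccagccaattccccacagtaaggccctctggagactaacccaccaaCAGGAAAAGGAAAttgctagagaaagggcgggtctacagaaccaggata
Ifitm3: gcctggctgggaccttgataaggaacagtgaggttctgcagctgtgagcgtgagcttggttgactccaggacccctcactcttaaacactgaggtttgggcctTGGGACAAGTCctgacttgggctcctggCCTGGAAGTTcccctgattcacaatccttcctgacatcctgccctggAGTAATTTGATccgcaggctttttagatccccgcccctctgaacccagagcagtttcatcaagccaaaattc
Whether the shared runs bear on the differences between the arrays was not tested.

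Other genes of the interferon pathway were read from lists beside the 3 Ifitm genes. Of 21 detected genes of interferon receptors and signalling, 2 were at least 2-fold lower, 2 at least 2-fold higher and 17 between, beside 6.26% lower and 6.66% higher among all detected genes. Counts this small are near those shares, but the shares depend on signal. At 16 to 64 times the median, where Ifngr1 and Socs3 lay, 1.53% of genes were at least 2-fold lower. At 4 to 16 times, where Irf2 lay, 2.57% were at least 2-fold higher, and under the median, where Ifngr2 lay, 12.8%. The list's median log2 difference was 0.14, and that of all detected genes 0.06. Ifngr1, the ligand-binding chain of the interferon gamma receptor, had signals of 53.0 and 25.0, 2.12-fold lower in CD4CD8aa IEL. Socs3, a feedback inhibitor of cytokine signalling, had 78.4 and 34.4, 2.28-fold lower, and its other probe sets gave -0.83 and -1.33. Irf2, a factor that can oppose Irf1, had 6.38 and 13.1, 2.05-fold higher. Ifngr2, the second chain of the receptor, was under the floor in CD4 IEL and at 0.99 in CD4CD8aa IEL, at least 2.48-fold higher, but its dimmer probe set gave -1.02. The receptor for type I interferons differed less: Ifnar1 had 10.03 and 5.51, a log2 difference of -0.86 with -0.32 at its other probe set, and Ifnar2 had 18.1 and 20.0.

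Further signalling genes and the interferon itself were well above the median on both arrays. Jak1, the kinase at both receptors, had 56.0 and 46.9, a log2 difference of -0.26, while its dimmer probe sets had 36.5 and 55.3 (0.60) and 10.7 and 5.36, close to 2-fold lower. Irf9, an interferon regulatory factor, had 19.1 and 19.3, Irf7 had 19.6 and 23.4, and Irf1 had 83.2 and 105. Ifng, which encodes interferon gamma, had 262.9 and 353.5, a log2 difference of 0.43. At their brightest probe sets these 5 genes had log2 differences between -0.26 and 0.43.

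Of 29 detected interferon-stimulated effector genes, 0 were at least 2-fold higher, 3 lower and 26 between, with a median of 0.08, where the shares of all detected genes are 6.66% higher and 6.26% lower. Cmpk2, a mitochondrial nucleotide kinase, had 2.28 and 0.41, a log2 difference of -2.48, but its other probe set gave 0.50. Ifit3, an antiviral protein that acts in a complex with its relatives, had 2.26 and 0.88, and Oasl2 0.81 and a signal below the floor. None of these signals passed 3 times the median. Under the median, where Cmpk2 and Oasl2 lay by mean signal, 11.1% of genes were at least 2-fold lower. At 1 to 4 times, where Ifit3 lay, 7.69% were. Dhx58, a regulator of RNA sensing, had the largest difference upwards, with 2.40 and 4.36, a log2 difference of 0.86. No effector gene reached the difference of Ifitm3, and Cmpk2 was the only one whose difference exceeded those of Ifitm1 and Ifitm2.

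Genes induced mainly by interferon gamma had a median of -0.16 over 18 detected members, with 0 at least 2-fold higher, 2 lower and 16 between, beside the 6.66% and 6.26% of all detected genes. The lower genes encode GTPases of cell-autonomous immunity, and both lay at 4 to 16 times the median, where 2.34% of genes were at least 2-fold lower. Iigp1 had 8.37 and 2.85, 2.94-fold lower (-0.73 on the log2 scale at its other probe set), and Irgm2 had 16.9 and 8.34, 2.03-fold lower. Gbp2, a guanylate-binding protein gene, had 68.6 and 42.8, a log2 difference of -0.68. Tapbp, which helps to load peptides on MHC class I, was higher, at 107 and 185, a log2 difference of 0.79 that its dimmer probe set did not share (0.06).

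Genes whose products act on IFITM proteins, or are bound by them, showed no 2-fold difference at the brightest probe set in any of the 8 detected members. Their median was 0.24, and a list this short would hold few at the shares of all detected genes (6.26% lower, 6.66% higher). Zmpste24, a membrane protease with which IFITM proteins act, had 60.4 and 68.2. Fyn, the kinase that phosphorylates IFITM3, had 107.0 and 141.1, a log2 difference of 0.40. Vapa, a membrane contact protein that IFITM proteins bind, had 54.8 and 71.5 (0.38). Nedd4, the ubiquitin ligase that acts on IFITM3, had 9.04 and 14.3 (0.66), and Setd7, the methyltransferase that acts on IFITM3, had 15.5 and 12.1 (-0.36). A dimmer probe set of Setd7 had 1.26 and 0.56, a log2 difference of -1.18. Of 10 restriction factor and antiviral genes of other classes, 1 was at least 2-fold lower, 0 were higher and 9 lay between, with a median of -0.10. So small a count is near the shares of all detected genes, while 2.34% were lower at 4 to 16 times the median, where Slfn1 lay. Slfn1, a Schlafen gene of T cells, had 13.9 and 6.64, a log2 difference of -1.07, and Slfn2 had 107.5 and 78.3 (-0.46). Apobec3, a cytidine deaminase that restricts retroviruses, had 26.5 and 40.03 (0.59), and Mov10, an RNA helicase gene, 1.80 and 2.61 (0.53).

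**Figure D4:**
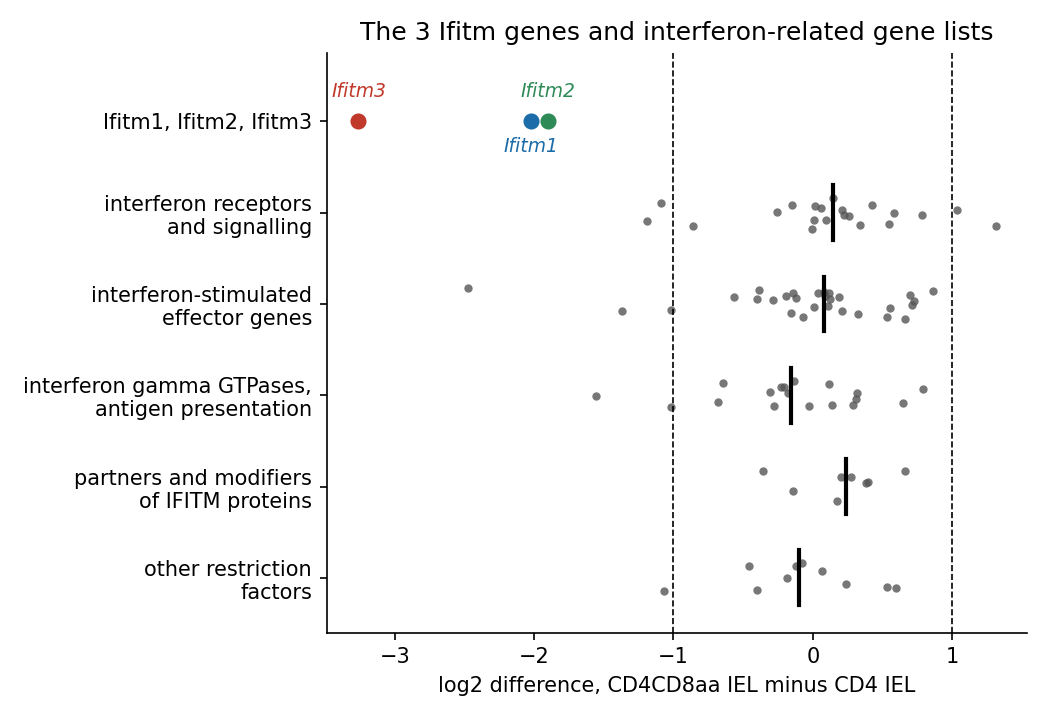
Log2 differences (horizontal axis, CD4CD8aa IEL minus CD4 IEL) of Ifitm1, Ifitm2 and Ifitm3 in the top row and of the detected genes of 5 interferon-related lists below, 1 point per gene, with black bars at the list medians and dashed lines at 2-fold. The list medians lie between -0.16 and 0.24, while the 3 Ifitm genes lie between -3.26 and -1.90.

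The genes most like each member over the 2 arrays were taken by distance in mean log2 signal and log2 difference. Nearest to Ifitm3 were A630038E17Rik, Irak3, Emp1, Gm10482 and Ptger2, at distances between 0.33 and 0.56 and with log2 differences between -3.79 and -2.74. Irak3 encodes an inhibitor of Toll-like receptor signalling, with signals of 12.2 and 1.10, and Ptger2 a prostaglandin E2 receptor, with 13.9 and 2.09. Nearest to Ifitm1 were Tnfsf8, Ass1, Icam2, Ccl1 and 2210407C18Rik, at distances between 0.17 and 0.35. Tnfsf8 encodes CD30 ligand, with signals of 8.41 and 2.01, and Icam2 an adhesion molecule, with 7.93 and 1.85. Nearest to Ifitm2 were Satb1, Tmem64, Cd84, Cap1 and Tcf7, at distances between 0.12 and 0.41. Satb1, a chromatin organiser of T cells, had 41.0 and 11.8, and Tcf7, which encodes the transcription factor TCF1, had 31.4 and 10.8. With 2 arrays many genes share such a pattern. Of these 15 genes, 0 stands in one of the interferon-related lists. Those lists hold few of the 17391 detected genes, so nothing is read from that count.

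Ifitm1, Ifitm2 and Ifitm3 are also expressed outside T cells, for example in epithelium and endothelium, so markers of other cells were read on the same arrays. Of all probe sets, 70.0% passed the floor on the CD4 IEL array and 69.9% on the CD4CD8aa IEL array. The marker counts here and below stand beside these shares, and passing the floor does not show that a cell type was present. Epithelial markers passed the floor for 14 of 15 genes in CD4 IEL and for 13 in CD4CD8aa IEL, and their summed signal was 54.0 and 47.1. Of these 15 genes, 4 were at least 2-fold lower in CD4CD8aa IEL, the direction of the Ifitm genes, 2 were at least 2-fold higher and 9 lay between, beside 6.26% lower and 6.66% higher among all detected genes. Lower were the keratin genes Krt18 (13.3 and 4.74) and Krt19 (1.96 and 0.78), the claudin gene Cldn7 (1.09 and a signal under the floor) and the mucin gene Muc2 (1.74 and 0.80). Krt8, a further keratin gene, had log2 differences of -0.68, -1.48 and -1.28 at its 3 probe sets. The remaining genes between went both ways. Fabp1 (0.43, and 0.80 at its dimmer probe set), Cdh1 (0.34), Tff3 (0.20) and Fabp2 (0.08) were higher by less than 2-fold. Epcam had 0.30, with -1.88 at its dimmer probe set. Olfm4 (-0.57 against the floor), Alpi (-0.16) and Krt20 (-0.14) were lower by less than 2-fold. Lgr5 and Vil1 were higher (at least 3.63-fold and 2.63-fold), from CD4 signals of 0.09 and 0.43. The shares of all detected genes depend on signal. At least 2-fold lower were 11.1% under the median, where Cldn7 lay, and 7.69% at 1 to 4 times, where Krt19 and Muc2 lay. At 4 to 16 times, where Krt18 lay, 2.34% were lower. Under the median, where Lgr5 and Vil1 lay, 12.8% were at least 2-fold higher. Endothelial markers passed the floor for 3 of 6 genes in CD4 IEL and for 1 in CD4CD8aa IEL, with summed signals of 4.13 and 1.59. Pecam1 had 2.41 and 0.21, Kdr 0.93 and 0.37, Emcn 0.56 and 0.09 and Cdh5 0.10 and 0.78, while Tek and Vwf carried the low-signal flag on both arrays. The part of these cells in the Ifitm signals was not tested.

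Myeloid markers passed the floor for 9 of 13 genes in CD4 IEL and 11 in CD4CD8aa IEL, with summed signals of 24.7 and 30.5, and their largest differences were those of Itgax (1.60), Cd14 (-1.57), S100a8 (1.04) and Fcer1g (0.92). Fibroblast and smooth muscle markers had summed signals of 5.40 and 5.63, with 4 of 7 above the floor on each array, led by Pdgfra (-1.46), Col3a1 (0.97), Acta2 (0.25) and Dcn (-0.22). B cell markers had summed signals of 3.44 and 2.68, with 3 of 6 above the floor in CD4 IEL and 4 in CD4CD8aa IEL. Cd79b (-1.76), Blnk (0.24), Pax5 (0.05) and Ms4a1 (-0.04) were the B cell genes with the largest differences. Of the T cell markers, 11 of 11 passed the floor on both arrays, with summed signals of 1519 and 1909 that include Cd8a, the marker of the sort. Besides Cd8a, the T cell genes with the largest differences in either direction were Cd2 (-2.76), Cd3e and Cd247 (-0.34). Cd3e had signals of 59.0 and 118.3, 2.01-fold higher in CD4CD8aa IEL.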

How the data were processed

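RNA of each sorted population was hybridised to 1 Affymetrix Mouse Genome array per group. GCOS 1.2 is named in the submitters' processing notes, and GeneSpring in the series' design text. The deposited table gives a raw intensity per probe set, and a deposited ratio of that signal to the array median, which matched the raw signal over the median to within 0.004994. The authors' deposited table also holds a log2 fold of CD4 IEL over CD4CD8aa IEL, with the sign opposite to the one used here: 3.26 for Ifitm3, a fold of 9.58.

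Raw signals were divided by the array median (Python 3.11.15, pandas 2.3.3), floored at 0.4 and put on the log2 scale. Each gene was read at its brightest probe set. Left out were 5871 probe sets with no symbol and 1399 with several. No test was possible with 1 array per group, and no set test was run. The calculation was tested on simulated data. Whether probes of one Ifitm gene also bind transcripts of another was not tested.

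The members and lists were chosen with earlier results of these data known. Named were all Ifitm genes, the genes within 8 places of the cluster, the 4 largest differences of each list, 13 preset interferon and IFITM-related genes, and the 5 genes most like each member. All epithelial and endothelial markers were named too. One of the preset genes and one marker are not reported here. Sequences are RefSeq's for GRCm38.p6, and all 3 members matched a promoter window by symbol. Protein sequences were not used here. The alternatives changed the normalization, the floor, the probe set rule and the filter.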

Additional observations from a re-analysis of the deposited data

How the results depend on the processing

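All 3 Ifitm genes remained at least 2-fold lower in CD4CD8aa IEL under each of the 10 alternatives, but several of these could not change their values. Each gene has 1 probe set, which passed the floor on both arrays. With no floor, the floor 2 times as high, the median over probe sets or no filter, the differences were therefore fixed. The deposited normalized values restate the same signals. Ifitm2 kept to between -1.94 and -1.90 on the log2 scale, Ifitm1 to between -2.04 and -1.22, and Ifitm3 to between -3.29 and -1.86. The smallest values of Ifitm1 (-1.22) and Ifitm3 (-1.86) came with a floor at 4 times the array median, chosen after the data were seen, which lies above their signals in CD4CD8aa IEL and so shortens the difference by construction. The count of all detected genes at least 2-fold lower, 1089 here, was 2679 with no floor, 484 with the floor 2 times as high, 219 with it at 2 times the median and 140 at 4 times. With the floor 2 times as high, 0 other Ifitm genes were 2-fold lower, and with no floor 1 was 2-fold higher. Of the interferon receptor and signalling genes, 1 was 2-fold higher with quantile normalization, with each of the 3 higher floors and with the median over probe sets, in place of 2. Of the interferon-stimulated effector genes, 0 were 2-fold lower with the floor at 2 times and at 4 times the median, in place of 3. The medians of the 6 lists moved by at most 0.09 on the log2 scale, for interferon receptors and signalling; with the floor at 2 times the median or above, no other Ifitm gene was left. No paired analysis was possible because each group has 1 array. Signals near the array median, as for Ifitm6 and Ifitm7, or under the floor on 1 array, as for Ifitm5 and Ifitm10, limit what can be said of their differences.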
